A study of Mus musculus with 32 samples.

Results

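The genes described here are the potassium channel genes of mouse muscle. They were taken from the expected count table as every gene whose symbol is Kcn followed by a family letter code and a number. The table lists 54838 genes, a symbol could be assigned to 54723, and 92 symbols fitted that pattern. A member was kept where at least 4 of the 32 libraries held at least 10 counts, which left 69 members and set 23 aside. The name fits these genes, and the 69 comprised 33 voltage-gated channel genes, 9 inward rectifiers, 8 channels with a doubled pore domain (K2P), 8 calcium- or sodium-activated channels and 11 accessory subunits.

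The libraries were made from whole muscle of *Mtm1* knockout (KO) mice and wild-type (WT) mice. Both genotypes were on the C57BL6/J background. The labels name the tissue only as skeletal muscle, and the study gives it as the tibialis anterior (TA). Loss of *Mtm1*, a phosphoinositide phosphatase gene on the X chromosome, models X-linked myotubular myopathy. The KO allele carries a targeted exonic deletion, no tissue-restricted driver is named for it, and the study describes the WT mice of its phenotypic comparisons as littermates. There were n=4 WT and n=4 KO libraries at each of postnatal days 1, 14, 21 and 35 (P1, P14, P21 and P35). The labels call the 4 libraries of a group separate samples without saying that each came from its own mouse, so the P-values measure the spread between these samples.

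Potassium channels let potassium ions leave or enter a cell and so return the membrane to rest after each action potential. In skeletal muscle fibres, delayed rectifiers of the Kv families repolarize the membrane, inward rectifiers hold the resting potential, ATP-sensitive channels couple it to energy state, and calcium-activated channels of the SK family shape the after-hyperpolarization. SK3, encoded by *Kcnn3*, is well known for being present in immature and denervated fibres and scarce in mature innervated ones.

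Counts summed to 49321019 to 85631391 per library. Levels below are CPM, that is, counts divided by the TMM-scaled library size on 1 scale for all 32 libraries, and levels are compared between genes only as CPM per kilobase (kb) of exon. *Mtm1*, whose gene count still includes the exons that the KO allele retains, was at 5.26 to 6.02 CPM in WT and 2.32 to 3.91 CPM in KO at P1. At P35 it was at 20.7 to 24.9 CPM in WT and 3.32 to 3.95 CPM in KO, and the genotypes did not overlap at any age. The 12 fast and general muscle fibre markers together made up 139264 to 195590 CPM in WT muscle at P35 and 94168 to 124510 CPM in KO. In whole muscle, fewer cells of a type and less RNA per cell cannot be told apart. KO replicate 4 at P1 stood apart from the other 3 KO libraries of that age. Its *Mtm1* level was 3.91 CPM against 2.32 to 2.45 CPM, and its muscle fibre marker sum was 19618 CPM against 26902 to 36914 CPM. It held the highest value of all 32 libraries for 13 of the 69 kept members and for 8 of the 23 set aside. WT replicate 4 at P21 also differed, with a slow fibre marker sum of 953 CPM against 274 to 338 CPM in the other 3.

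Of the 69 members, 38 reached 10 counts in every library. Averaged over the 8 groups, 7 members stood at 10 CPM per kb or more, 12 between 1 and 10, 30 between 0.1 and 1, and 20 under 0.1. *Kcnc4*, which encodes the voltage-gated subunit Kv3.4, had the highest mean level at 37.8 CPM per kb. *Kcnj11*, the pore subunit Kir6.2 of the ATP-sensitive channel, followed at 27.2 CPM per kb, and *Kcna7*, the muscle Kv1.7, at 25.7 CPM per kb. The next places were held by *Kcnc1* (Kv3.1) at 14.0, *Kcnj12* (Kir2.2) at 11.6, *Kcnj2* (Kir2.1) at 10.4 and *Kcnj8* (Kir6.1) at 10.3 CPM per kb. *Kcnj2* and *Kcnj8* were nearly level, and at P14 and P21 the WT libraries of the pair overlapped. *Kcna5* (Kv1.5), also among the 10 highest, was at 5.63 CPM per kb. The 10 highest members of each group carried 61.9% of the summed level in WT muscle at P1 and 89.9% at P35.

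**Figure D1:**
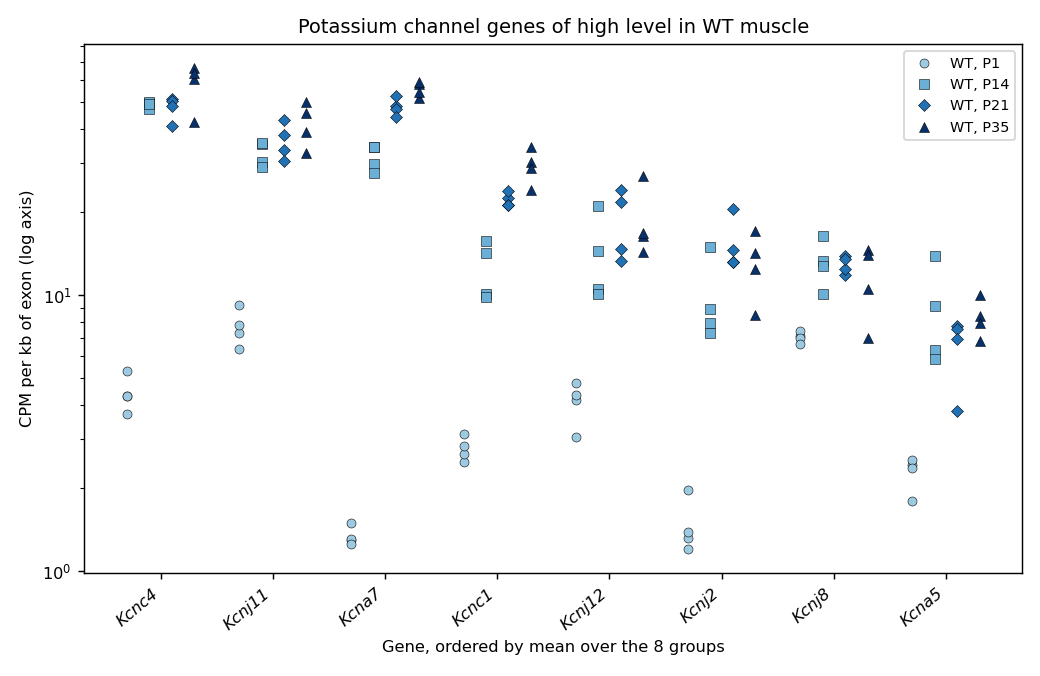
Levels of 8 potassium channel genes from among the 10 with the highest mean, in CPM per kb of exon on a log axis, in the 16 WT libraries; each point is 1 library and its shape and shade give the age. *Kcna7* sat between 1 and 2 CPM per kb at P1 and above 50 at P35.

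The mean summed level of the 69 members was higher at each later age in WT muscle, although the libraries of P21 and P35 overlapped. It was 73.8 ± 2.99 CPM per kb (SD, n=4) at P1 and 216 ± 20.1 at P14. By P21 it was 260 ± 17.7 and by P35 299 ± 24.4. In KO muscle the sum went from 74.4 ± 8.25 to 201 ± 20.3 CPM per kb over the same interval, then to 213 ± 8.22 at P21 and 177 ± 10.7 at P35. The KO libraries lay between 165 and 186 CPM per kb at P35, all below the WT range of 272 to 322. The order changed as well. *Kcnj11* and *Kcnj8* led in both genotypes at P1, and *Kcnc4*, *Kcna7* and *Kcnj11* led in WT at P35. *Kcng4*, which encodes a silent modifier subunit that acts only together with Kv2 subunits, was the member in 48th place in WT at P1 and in 5th place at P35. In KO muscle at P35 it stood in 12th place.

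The first question was how the channel genes change as WT muscle matures. Between P1 and P14, edgeR's quasi-likelihood (QL) test called 44 of 62 members tested, 21 higher and 23 lower (71%, against 54.2% of all genes tested, 24.6% higher and 29.7% lower). A call needed an adjusted P under 0.01 and a change over 1.5-fold. The median change on the log2 scale was -0.54 for the members and -0.08 for all genes. When library totals replaced TMM, the median of all genes shifted to -0.84 and the 49 members then called split into 14 higher and 35 lower. By class, 11 of 28 voltage-gated genes were called higher and 10 lower, 4 of 8 inward rectifiers higher and 1 lower, and 4 of 8 calcium- or sodium-activated genes higher and 2 lower. None of the 8 K2P genes was called higher and 4 were called lower. Among the accessory subunits 2 of 10 were called higher and 6 lower.

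*Kcna7* and *Kcng4* showed the largest rises. *Kcna7* was at 2.74 to 3.26 CPM at P1 and at 60.2 to 75.0 CPM at P14 in WT muscle, which is 4.54 on the log2 scale (SE 0.09, adjusted P=1.85e-14 by edgeR's QL test). *Kcng4* rose from 0.306 to 0.710 CPM to 7.37 to 11.2 CPM over the same interval (log2 fold change 4.27, SE 0.23, adjusted P=2.08e-10). It was the 1 member called higher at each of the 3 steps. *Kcng4* reached 23.3 to 29.7 CPM at P21 (log2 fold change 1.59, adjusted P=2.71e-05 by edgeR's QL test) and 72.0 to 116 CPM at P35 (log2 fold change 1.90, adjusted P=1.85e-05). Its WT mean at P35 was 218 times that at P1. *Kcnc4* rose by 3.46 on the log2 scale between P1 and P14, *Kcnn1* (SK1) by 2.78, *Kcnq5* (Kv7.5) by 2.80 and *Kcnj2* by 2.71. *Kcnc1*, *Kcnj11*, *Kcna5*, *Kcnj12* and *Kcnn2* (SK2) rose by 1.12 to 2.14, and *Kcnj8* by 0.88. With library totals in place of TMM, *Kcnn2* (log2 fold change 0.37) and *Kcnj8* (0.11) were no longer called.

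The largest falls of the WT mean from P1 to P35, among members called in a WT age comparison, were those of *Kcnk7*, *Kcnj10*, *Kcna6*, *Kcnmb4* and *Kcnk13*. *Kcnk7*, a K2P subunit that has not been shown to conduct on its own, was at 0.261 to 0.809 CPM at P1 and listed at 0 in all 4 WT libraries at P35. Taking 3 counts per library as the floor, its P1 mean was at least 6.25-fold higher. The 8 keratinocyte markers moved with it, summing to 2157 to 6823 CPM in WT at P1 and to 9.40 to 10.4 CPM at P35, and their part in the fall was not tested. *Kcnj10* (Kir4.1), known for its role in glia, was at 2.69 to 3.85 CPM at P1 and 0.208 to 0.380 CPM at P35 in WT. *Kcna6* (Kv1.6) went from 10.9 to 13.2 CPM to 0.899 to 1.99 CPM, and *Kcnmb4*, an accessory subunit of the large conductance BK channel that is abundant in brain, from 1.88 to 2.23 CPM to 0.138 to 0.594 CPM. *Kcnk13*, the K2P channel THIK-1, was at 3.97 to 4.26 CPM at P1, 0.123 to 0.652 CPM at P21 and 0.560 to 0.831 CPM at P35. Its P14 to P21 step was the largest fall of a member in that interval (log2 fold change -2.40, SE 0.34, adjusted P=0.000127 by edgeR's QL test).

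The later WT steps were smaller. From P14 to P21, 9 of 62 members were called, 5 higher and 4 lower (14.5%, against 7.13% of all genes, 3.43% higher and 3.7% lower). The 5 included *Kcna7*, *Kcng4*, *Kcnc1* and *Kcnn1*, and the 4 were *Kcnj10*, *Kcnk13*, *Kcna6* and *Kcnb2* (Kv2.2), the last of them named after its values were seen. Several of these calls lay near the threshold and were lost when 1 library was left out. That of *Kcna6* was lost without any 1 of 7 of the 8 libraries, WT replicate 4 of P14 being the exception, with adjusted P-values up to 0.0305 by edgeR's QL test. That of *Kcnj10* was lost in 6 of 8 cases, WT replicate 4 of P14 and WT replicate 3 of P21 being the exceptions, with adjusted P-values up to 0.0249. *Kcna7* fell short of 1.5-fold without WT replicate 2 of P14 or WT replicate 4 of P21, at 0.56 and 0.58 on the log2 scale, and with library totals in place of TMM, at 0.44. From P21 to P35, 4 members were called (6.45%, against 3.8% of all genes, 2.02% higher and 1.78% lower). *Kcng4* was higher, and *Kcnj10* and *Kcna6* were among the lower ones, with log2 fold changes of -1.80 and -1.04. The call of *Kcnj10* held without any 1 library, whereas that of *Kcna6* was lost in 6 of 8 cases (WT replicate 1, 2 or 3 of P21, WT replicate 1, 2 or 4 of P35), with adjusted P-values up to 0.0172 by edgeR's QL test. The count from P21 to P35 changed when 1 library was left out. It was 2 without WT replicate 1 or 3 of P21 or WT replicate 4 of P35, and 8 without WT replicate 3 of P35, the WT library with the highest Schwann cell and nerve marker sum of that age (608 CPM against 97.3 to 282).

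The second question was how loss of *Mtm1* alters these genes at each age. At P1, 0 of 66 members tested were called by edgeR's QL test (0.0442% of all genes were), and 9 had an unadjusted P under 0.05 (10.9% of all genes did). DESeq2 called 2, *Kcnc1* and *Kcnj15*, both higher in KO, and its share of all genes is not given here. *Kcnc1*, a Kv3 delayed rectifier of fast-firing cells and fast fibres, came closest in edgeR. It was at 23.5, 29.7, 25.2 and 26.8 CPM in WT muscle, against 55.2, 46.5, 51.6 and 36.9 CPM in KO. The KO libraries were all above the WT ones, by 0.87 on the log2 scale (SE 0.13, adjusted P=0.0369 by edgeR's QL test). Without KO replicate 4, *Kcnc1* was the 1 member called (adjusted P=0.00532). *Kcnj15* (Kir4.2), named here after its values were seen, had a log2 fold change of 0.80 at P1 (SE 0.14, adjusted P=0.0630 by edgeR's QL test). The KO and WT libraries did not overlap for 7 members (10.6% of the members against 8.62% of all genes).

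At P14, 0 of 55 members tested were called by edgeR's QL test (0.0318% of all genes), 9 had an unadjusted P under 0.05 (6.82% of all genes did), and DESeq2 called 0. Same-numbered libraries of this age deviated together, although the labels do not say that the numbers pair them. With the replicate number as a block, 1 member passed. That member was *Kcng4*, at 7.37, 7.39, 9.29 and 11.2 CPM in WT muscle, against 4.83, 4.95, 5.4 and 6.58 CPM in KO. Its log2 fold change was -0.70 without the block (SE 0.16, adjusted P=0.269) and the adjusted P fell to 0.000903 with the block. *Kcna7* and *Kcnn2* likewise had no overlap between genotypes at P14, at 60.2 to 75.0 CPM in WT against 37.3 to 53.9 CPM in KO and at 6.23 to 6.92 CPM against 4.33 to 5.51 CPM. Their adjusted P-values were 0.216 and 0.169 by edgeR's QL test. In all, 5 members had no overlap (9.09% against 4.84% of all genes).

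At P21, edgeR's QL test called 6 of 51 members tested (11.8%, against 4.67% of all genes), 4 lower and 2 higher in KO (1.5% and 3.18% of all genes). The lower members included *Kcng4*, *Kcnn2* and *Kcna7*, and the 2 higher members were *Kcnn3* and *Kcnq5*. The median log2 fold change was -0.16 for the members tested and 0.01 for all genes. Genotypes did not overlap for 10 members (19.6% against 24.7% of all genes). None of the 7 inward rectifiers, 6 K2P genes or 8 accessory subunits tested was called.

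At P35, 14 of 53 members were called (26.4%, against 16% of all genes), 10 lower and 4 higher in KO (7.52% and 8.49% of all genes). The lower members included *Kcng4*, *Kcnn2*, *Kcna7*, *Kcnc1*, *Kcna5*, *Kcnj12*, *Kcnc4* and *Kcnn1*. The higher members included *Kcnn4*, *Kcnk5* and *Kcnn3*. Regardless of sign, the median size of the change was 0.65 for the members and 0.34 for all genes. The members also had the larger median size at P1 (0.23 against 0.12), P14 (0.17 against 0.09) and P21 (0.37 against 0.21). The gap was thus not particular to P35, and it was present at P1 and P14, where 0 members were called. With its sign, the median log2 fold change at P35 was 0.01 for the members and 0.04 for all genes. With library totals in place of TMM the median of all genes shifted to 0.44, and 13 members were called, 8 higher and 5 lower, of which 9 were among the 14. *Kcna5*, *Kcnc4*, *Kcnj12* and *Kcnn1* were among the members that lost the call there, with log2 fold changes of -0.28 to -0.64. Genotypes did not overlap for 18 members (34.0% against 39.6% of all genes). The 14 called members were spread over 9 chromosomes, with 4 on chromosome 7, which also held 8 of the 53 tested.

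**Figure D2:**
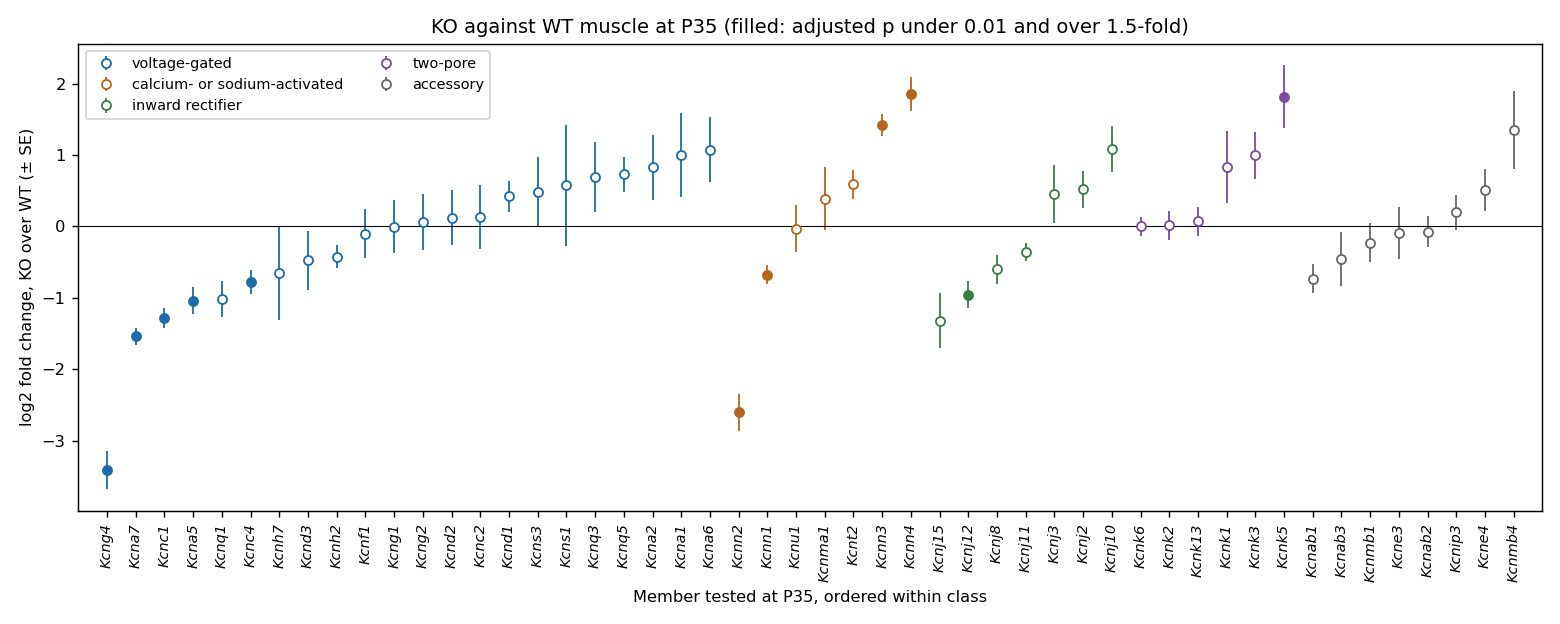
Log2 fold change of KO over WT at P35 with its SE for 50 of the 53 members tested, ordered within class; filled points passed the test (adjusted P under 0.01 and over 1.5-fold). *Kcng4* at -3.42 and *Kcnn2* at -2.60 lie lowest and *Kcnn4* at 1.86 and *Kcnk5* at 1.82 highest, and no accessory subunit is filled.

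*Kcng4* (ENSMUSG00000045246) lies at chr8:119623854-119635680 on the minus strand, *Kcna7* (ENSMUSG00000038201) at chr7:45405653-45409763 on the plus strand, and *Kcnn3* (ENSMUSG00000000794) at chr3:89520164-89675132 on the plus strand (GRCm38, GENCODE M21). Counts are summed over the exons of each gene. The start sites of 4 members called at P35 in RefSeq coincided with those of the GENCODE annotation, and the 250 bases before each are printed here because *Kcng4* and *Kcnn1* were lower and *Kcnn3* and *Kcnn4* higher in KO at P35. They are from GRCm38 (RefSeq, GRCm38.p6), 5′ to 3′ on the gene's strand, at chr8:119635681-119635930 (minus strand), chr8:70863259-70863508 (minus strand), chr3:89519914-89520163 (plus strand) and chr7:24370013-24370262 (plus strand). Capitals mark CAGCTG, an E-box form that myogenic factors bind, TGTGGT, the core bound by RUNX factors, and TGACTCA, the AP-1 site, each searched on both strands.
Kcng4: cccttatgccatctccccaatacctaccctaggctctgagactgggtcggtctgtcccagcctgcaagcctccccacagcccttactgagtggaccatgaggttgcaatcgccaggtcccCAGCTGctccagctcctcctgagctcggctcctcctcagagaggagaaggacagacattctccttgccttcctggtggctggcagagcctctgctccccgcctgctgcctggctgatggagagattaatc
Kcnn1: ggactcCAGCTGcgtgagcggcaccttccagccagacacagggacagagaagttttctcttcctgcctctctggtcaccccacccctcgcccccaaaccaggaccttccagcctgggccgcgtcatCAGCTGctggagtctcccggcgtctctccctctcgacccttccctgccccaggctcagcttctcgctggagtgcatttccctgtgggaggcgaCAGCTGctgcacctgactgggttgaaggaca
Kcnn3: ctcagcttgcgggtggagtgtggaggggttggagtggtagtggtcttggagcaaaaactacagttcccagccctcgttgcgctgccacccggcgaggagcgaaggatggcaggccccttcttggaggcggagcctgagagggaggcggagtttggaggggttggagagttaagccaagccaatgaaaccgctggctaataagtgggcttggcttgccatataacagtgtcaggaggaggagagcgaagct
Kcnn4: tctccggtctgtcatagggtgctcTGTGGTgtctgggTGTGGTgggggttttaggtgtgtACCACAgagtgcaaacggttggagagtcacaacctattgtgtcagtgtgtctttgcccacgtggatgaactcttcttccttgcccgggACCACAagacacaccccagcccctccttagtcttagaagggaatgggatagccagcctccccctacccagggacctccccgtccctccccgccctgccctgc
The *Kcng4* promoter held CAGCTG once and the *Kcnn1* promoter 3 times, the *Kcnn4* promoter held TGTGGT or its reverse complement 4 times, and none of these motifs occurred in that of *Kcnn3*. Other members called at P35 had RefSeq promoters whose starts did not coincide with the start of the GENCODE gene, the only GENCODE start compared. Among these, *Kcna7* and *Kcnc4*, both lower in KO, held 1 TGTGGT or its reverse complement and no CAGCTG. Those of *Kcnc1*, *Kcna5* and *Kcnj12*, lower, and *Kcnk5*, higher, held none of the motifs. The part of these motifs in the KO changes was not tested. Of 32851 promoters of the same length, 13.0% held CAGCTG, 14.0% TGTGGT and 4.46% TGACTCA. Of 67 promoters of 49 kept members, 25.4%, 11.9% and 2.99% did. Some of the 67 are overlapping stretches of the same gene, so 1 CAGCTG could be counted more than once.

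Among the voltage-gated genes, 25 were tested at P35, of which 7 were called lower and 1 higher. Of all genes tested at P35, 7.52% were called lower and 8.49% higher, and these shares are the background for the other classes and families too. *Kcng4* was at 95.6, 113, 72.0 and 116 CPM in WT at P35 and at 10.4, 4.75, 10.5 and 10.9 CPM in KO. The WT libraries all lay far above the KO libraries, and the log2 fold change was -3.42 (SE 0.27, adjusted P=6.19e-05 by edgeR's QL test). At P21 *Kcng4* was at 23.3 to 29.7 CPM in WT and 5.98 to 11.2 CPM in KO (log2 fold change -1.57, SE 0.17, adjusted P=0.000731). The KO effect on *Kcng4* was larger at P35 than at P21, by -1.86 on the log2 scale (SE 0.30, adjusted P=0.00120 for the interaction from edgeR's QL test over all 32 libraries). It was the 1 member of 67 for which this difference passed (0.463% of all genes did). In a fit of only the 16 libraries of those ages the adjusted P was 0.0195. From P14 to P21 the interaction passed for 0 of 67 members (0.425% of all genes), with 6 at an unadjusted P under 0.05 (12.9% of all genes), and in the fit of only the 16 libraries *Kcnn2* passed.

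Of the 5 Kv1 genes tested at P35, 2 were called, both lower. *Kcna7* was at 106, 103, 95.8 and 115 CPM in WT muscle, against 57.6, 65.9, 55.5 and 61.6 CPM in KO at P21 (log2 fold change -0.79, SE 0.08, adjusted P=0.000345 by edgeR's QL test). At P35 it was at 126, 113, 119 and 129 CPM in WT muscle, against 35.6, 51.0, 36.4 and 41.4 CPM in KO (log2 fold change -1.54, SE 0.12, adjusted P=5.69e-05). WT muscle held 2.96 times the KO level of *Kcna7* at P35. *Kcna5* was at 24.0, 22.6, 28.6 and 19.4 CPM in WT muscle, against 15.7, 9.57, 11.5 and 8.50 CPM in KO at P35 (log2 fold change -1.04, SE 0.19, adjusted P=0.00250 by edgeR's QL test). Its genotypes overlapped at P21, where the log2 fold change of *Kcna5* was -0.46 and did not pass (adjusted P=0.302 by edgeR's QL test).

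The Kv3 family, known for fast repolarization, included *Kcnc1* and *Kcnc4*, both lower in KO at P35. *Kcnc1* was at 286, 228, 273 and 324 CPM in WT muscle, against 138, 111, 93.1 and 106 CPM in KO (log2 fold change -1.28, SE 0.14, adjusted P=0.000219 by edgeR's QL test). This was the opposite direction from P1, where *Kcnc1* was 0.87 higher in KO but not called, and the difference between those ages was not tested. *Kcnc4* was at 243, 222, 155 and 233 CPM in WT muscle, against 149, 97.6, 118 and 125 CPM in KO (log2 fold change -0.78, SE 0.16, adjusted P=0.00458). The genotypes overlapped for *Kcnc4* at P21, at 149 to 189 CPM in WT and 160 to 222 CPM in KO. Leaving out a library ended the call of *Kcnc4* in 5 of 8 cases (WT replicate 1, 2 or 4, KO replicate 3 or 4), with adjusted P-values up to 0.0146 by edgeR's QL test. The sign did not change.

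The Kv7 family includes *Kcnq5*, called at P21. *Kcnq5* was at 21.5, 15.1, 31.4 and 25.2 CPM in WT muscle, against 59.6, 51.0, 37.6 and 42.8 CPM in KO at P21 (log2 fold change 1.04, SE 0.22, adjusted P=0.00971). *Kcnq5* overlapped between genotypes at P35, where it was not called (adjusted P=0.0359). The P21 call of *Kcnq5* was lost without any 1 of 7 of the 8 libraries, WT replicate 3 being the exception, with adjusted P-values up to 0.0324 by edgeR's QL test. It was also lost with upper quartile scaling, where the adjusted P was 0.0103, and with the replicate block (0.0238). *Kcnq1* (Kv7.1), named after its values were seen, lay just outside the threshold at P35 (log2 fold change -1.02, adjusted P=0.0101 by edgeR's QL test). Its exons overlap an antisense gene with more counts, so its own count is uncertain to that extent.

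**Figure D3:**
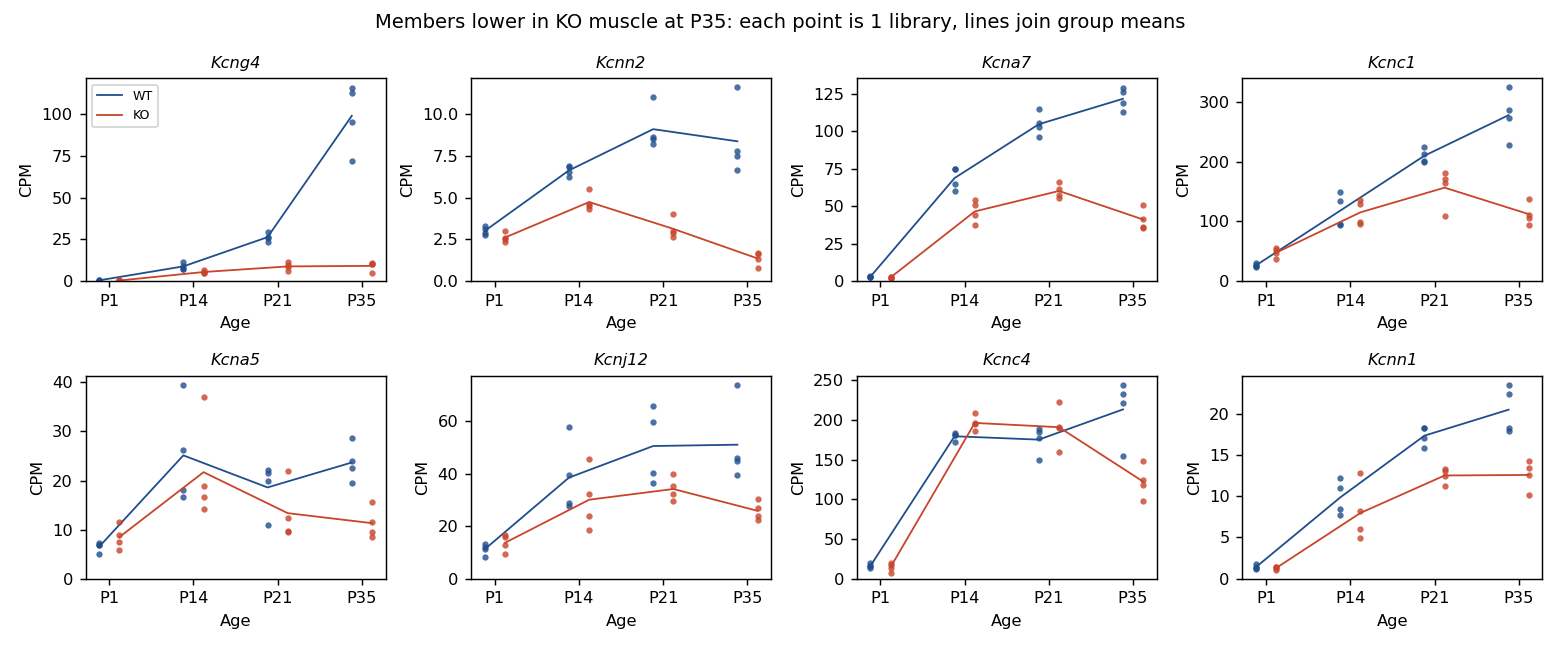
CPM in each library of 8 of the 10 members lower in KO muscle at P35, by age, with WT in blue and KO in red; each point is 1 library and lines join the group means. *Kcnc1* is higher in KO at P1, and at P35 every WT point lies above every KO point in all 8 panels.

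All 4 members of the SK and IK family of calcium-activated channels were called at P35, with 2 lower and 2 higher. *Kcnn2* was at 11.1, 8.51, 8.65 and 8.23 CPM in WT muscle, against 2.67, 2.87, 2.98 and 4.0 CPM in KO at P21 (log2 fold change -1.53, SE 0.15, adjusted P=0.000383 by edgeR's QL test). At P35 *Kcnn2* was at 7.49, 6.65, 11.6 and 7.77 CPM in WT muscle, against 1.35, 0.796, 1.62 and 1.66 CPM in KO (log2 fold change -2.60, SE 0.26, adjusted P=0.000144). *Kcnn3* showed the opposite. It was at 8.92, 8.16, 9.08 and 9.16 CPM in WT muscle, against 28.9, 20, 16.6 and 19.1 CPM in KO at P21 (log2 fold change 1.27, SE 0.15, adjusted P=0.000958 by edgeR's QL test). At P35 *Kcnn3* was at 7.28, 7.65, 10.2 and 11.9 CPM in WT muscle, against 21.1, 25.6, 25.5 and 25.1 CPM in KO (log2 fold change 1.42, SE 0.16, adjusted P=0.000219). In WT muscle *Kcnn3* was not called between P1 and P14, with a log2 fold change of 0.10 (adjusted P=0.605 by edgeR's QL test). The KO libraries at P35 also lay above the 8.70 to 11.1 CPM of newborn WT muscle. Per length, WT muscle at P35 held 0.890 to 1.55 CPM per kb of *Kcnn2* and 0.696 to 1.13 of *Kcnn3*, and these ranges overlapped. KO muscle held 0.107 to 0.222 CPM per kb of *Kcnn2* and 2.02 to 2.45 of *Kcnn3*, which did not overlap.

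*Kcnn1* was at 23.4, 18.2, 22.3 and 17.9 CPM in WT muscle, against 14.2, 12.5, 10.1 and 13.4 CPM in KO at P35 (log2 fold change -0.68, SE 0.13, adjusted P=0.00321 by edgeR's QL test). Without WT replicate 3 its adjusted P was 0.0102. At P21 *Kcnn1* had an adjusted P=0.00438 but a log2 fold change of -0.46, short of 1.5-fold. *Kcnn4*, the intermediate conductance channel IK known from red blood cells and leukocytes, was at 0.633, 0.445, 0.807 and 0.600 CPM in WT muscle, against 2.09, 1.64, 2.68 and 2.49 CPM in KO at P35. Its groups did not overlap (log2 fold change 1.86, SE 0.24, adjusted P=0.000406 by edgeR's QL test), and the KO level was near that of both genotypes at P1 (1.28 to 3.57 CPM). The 8 macrophage and leukocyte markers moved with *Kcnn4*. They summed to 83.3 to 104 CPM in WT and 122 to 188 CPM in KO at P35, and 5 of the 8 were called higher (8.49% of all genes were). The 5 erythroid markers summed to 189 to 584 CPM in WT and 222 to 433 CPM in KO, with 0 called. The part of either cell type in the *Kcnn4* level was not tested. *Kcnma1*, the BK channel, named after its values were seen, was at 17.0 to 54.4 CPM in WT and 21.3 to 63.2 CPM in KO at P35 and was not called.

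The denervation markers, like *Kcnn3*, were higher in KO at P21 and P35. The 8 genes of that list include the acetylcholine receptor subunits of denervated fibres. They summed to 42.7 to 99.3 CPM in WT and 167 to 242 CPM in KO at P21. At that age 4 were called higher (3.18% of all genes were). At P35 they summed to 44.4 to 77.0 CPM in WT and 192 to 409 CPM in KO, with 7 called higher (8.49% of all genes were). In maturing WT muscle these markers and *Kcnn3* parted. The markers summed to 315 to 414 CPM at P1 and 106 to 180 CPM at P14. Of the 8, 6 were called lower over that step (29.7% of all genes were), and *Kcnn3* was not called. The slow fibre markers summed to 36.2 to 171 CPM in WT and 768 to 1830 CPM in KO at P35, with 5 of 6 called higher. Their part in the changes of the channel genes was not tested.

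**Figure D4:**
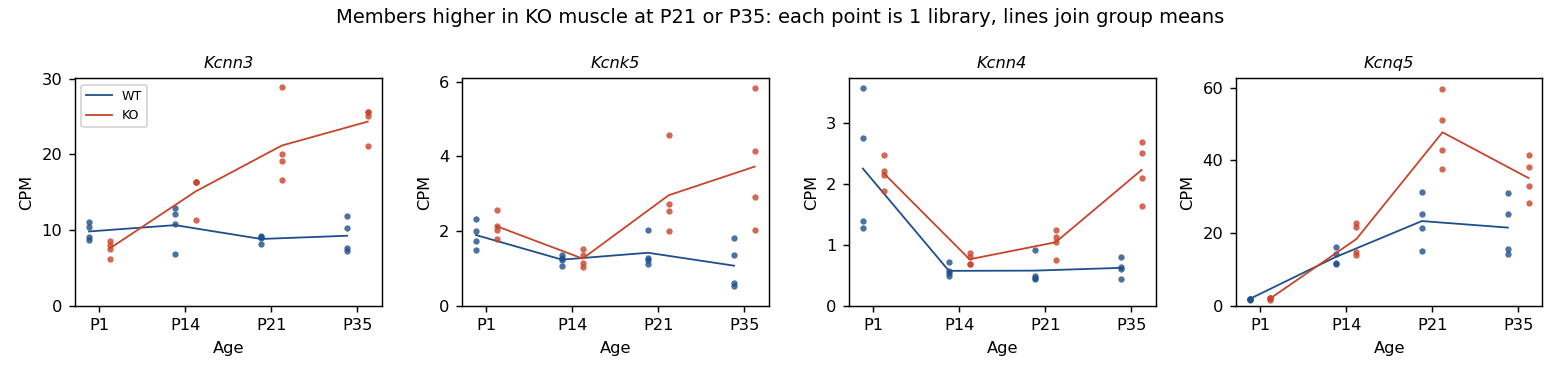
CPM in each library of *Kcnn3*, *Kcnn4* and *Kcnk5*, higher in KO muscle at P35, and of *Kcnq5*, higher at P21, by age, with WT in blue and KO in red; each point is 1 library and lines join the group means. The KO points of *Kcnn3* lie above all WT points at P21 and P35, and the *Kcnn4* panel shows KO above WT at P35 near the level of both genotypes at P1.

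Of the 7 inward rectifiers tested at P35, 1 was called lower and 0 higher. *Kcnj12* was at 74.0, 45.0, 46.0 and 39.4 CPM in WT muscle, against 30.3, 22.4, 26.9 and 23.9 CPM in KO (log2 fold change -0.96, SE 0.19, adjusted P=0.00361 by edgeR's QL test). Without KO replicate 4 the adjusted P of *Kcnj12* was 0.0105. *Kcnj2*, which encodes the other main Kir2 subunit of muscle, was at 46.2 to 92.7 CPM in WT and 75.9 to 152 CPM in KO at P35. The genotypes overlapped and the log2 fold change of *Kcnj2* was 0.52 (SE 0.26, adjusted P=0.131). Both pore subunits of the ATP-sensitive channels overlapped between genotypes. *Kcnj11* was at 120 to 184 CPM in WT and 109 to 130 CPM in KO (log2 fold change -0.36, SE 0.13, adjusted P=0.0497 by edgeR's QL test). *Kcnj8* was at 17.9 to 37.1 CPM in WT and 17.5 to 20.4 CPM in KO (log2 fold change -0.60, SE 0.20, adjusted P=0.0357). *Kcnj8* is known from smooth muscle and pericytes, whose 8 markers summed to 1086 to 1472 CPM in WT and 937 to 1081 CPM in KO at P35, with 1 of 8 called lower.

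The K2P genes had 1 call among 6 tested at P35. *Kcnk5*, an acid-sensitive K2P channel (TASK-2), was at 1.80, 0.538, 1.35 and 0.600 CPM in WT muscle, against 2.02, 2.91, 5.82 and 4.15 CPM in KO (log2 fold change 1.82, SE 0.44, adjusted P=0.00949 by edgeR's QL test). The highest WT and the lowest KO library differed by little. The call of *Kcnk5* was lost without any 1 of 6 of the 8 libraries (WT replicate 2, 3 or 4, KO replicate 2, 3 or 4), with adjusted P-values up to 0.0291, and with the replicate block (0.0133). *Kcnk13* was at 0.560 to 0.831 CPM in WT and 0.641 to 0.785 CPM in KO at P35 (log2 fold change 0.07).

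None of the 8 accessory subunits tested at P35 was called. *Kcnmb4* had the largest log2 fold change among them, 1.35 (SE 0.55, adjusted P=0.0734 by edgeR's QL test), at 0.138 to 0.594 CPM in WT and 0.285 to 1.39 CPM in KO. Members known from nerve and glia are given with it. *Kcna6* was at 1.44, 1.03, 1.99 and 0.899 CPM in WT muscle, against 3.57, 4.53, 2.07 and 0.909 CPM in KO at P35, and *Kcnj10* at 0.208 to 0.380 CPM against 0.321 to 0.750 CPM. Their log2 fold changes were 1.08 (adjusted P=0.0863) and 1.09 (adjusted P=0.0234) by edgeR's QL test. *Kcna1* and *Kcna2*, the axonal Kv1 channels, named after their values were seen, had log2 fold changes of 1.00 and 0.83 that did not pass (adjusted P=0.196 and 0.168). The 8 Schwann cell and nerve markers had sums of 282, 155, 608 and 97.3 CPM in WT replicates 1 to 4 at P35, against 824, 1305, 593 and 326 CPM in the KO replicates, with 0 of 8 called. In KO, *Kcna6*, *Kcnmb4* and this marker sum were all highest in replicate 2 and lowest in replicate 4, and the part of nerve in these members was not tested.

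Members that were lower in KO at P35 were members that rise early in WT life. The WT comparison of P14 with P1 and the KO comparison at P35 contrasted different libraries. The WT libraries of P35 were also part of the fit for age, however, so the calls did not come from fully separate data. All 10 members lower in KO at P35 had been called higher in WT between P1 and P14, with a median rise of 2.13 on the log2 scale. Of all genes lower in KO at P35 and tested in both comparisons, 834 of 1172 (71.2%) had risen. Of the 39 members not called at P35, 11 had risen (28.2%) and 17 had fallen (43.6%). Read from the other side, the 10 were 47.6% of the 21 members tested in both that rose in WT, and the 834 were 19.6% of 4260 genes. Of the 4 members higher in KO at P35, 1 had fallen in WT, *Kcnn4*, and 3 were not called. Of all genes higher in KO, 710 of 1277 (55.6%) had fallen. The members that rose early were not all lower in KO. *Kcnj2*, *Kcnj11*, *Kcnq5* and *Kcnma1* rose in WT and were not called at P35.

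**Figure D5:**
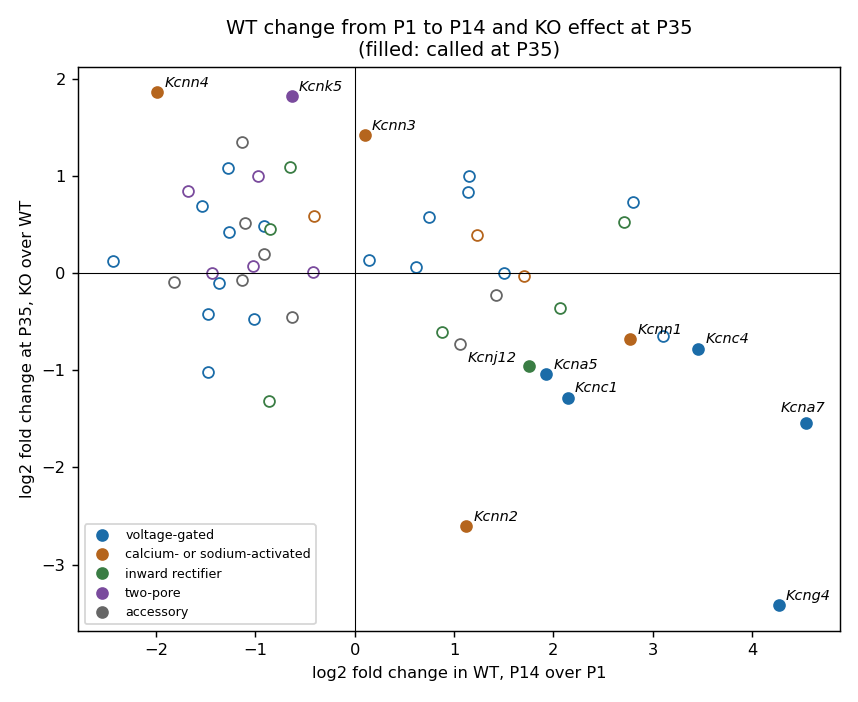
Log2 fold change of WT muscle from P1 to P14 (horizontal) and of KO over WT at P35 (vertical) for 50 of the 53 members tested in both; filled points passed the test at P35 and colour gives the class. The 8 filled points below zero all lie to the right of 1 on the horizontal axis, and the 3 filled points above zero lie no further right than 0.10.

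Each genotype can also be followed from newborn to the last age by the ratio of its group means. *Kcnc1* reached 10.5 times its P1 mean by P35 in WT and 2.35 times in KO. *Kcna5* reached 3.63 times in WT and 1.33 times in KO. *Kcnn2* reached 2.79 times in WT, and in KO it ended at 0.520 times its P1 mean. *Kcng4* in KO ended at 25.7 times its P1 mean, and its KO means were 5.44, 8.80 and 9.13 CPM at P14, P21 and P35.

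The genes that work beside potassium channels were read from a list of 25 potassium transport genes. It included channel partners, subunits and regulators of the sodium-potassium pump, cation-chloride cotransporters and TRIC channels. At P1 and P14, 0 of 22 tested were called, and at P21 0 of 21. At P35, 5 of 22 were called, 3 higher and 2 lower, where 8.49% of all genes were called higher and 7.52% lower. *Abcc9*, the sulfonylurea receptor SUR2 that assembles with *Kcnj11* and *Kcnj8* products, was at 311 to 426 CPM in WT and 207 to 231 CPM in KO (log2 fold change -0.71, SE 0.10, adjusted P=0.000790 by edgeR's QL test). *Atp1a4*, a pump alpha subunit best known from sperm, was at 0.641 to 1.46 CPM in WT and 0.147 to 0.303 CPM in KO (log2 fold change -2.17, SE 0.34, adjusted P=0.00101). The cotransporter *Slc12a4* and the pump regulator *Fxyd5* were higher, with log2 fold changes of 0.85 and 0.67. In WT muscle between P1 and P14, 10 of 23 of these genes were called higher and 5 lower, where 24.6% of all genes were called higher and 29.7% lower.

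The remaining members were low. The 23 set aside had between 1 and 88 counts in their highest library and at least 10 counts in at most 3 libraries. They included *Kcne1*, *Kcne2*, *Kcng3*, *Kcnh4*, *Kcnh5*, *Kcnh6*, *Kcnip1*, *Kcnj1*, *Kcnj4*, *Kcnj5*, *Kcnj6*, *Kcnj9*, *Kcnj16*, *Kcnk4*, *Kcnk9*, *Kcnk12*, *Kcnk15*, *Kcnk16*, *Kcnk18*, *Kcnmb3*, *Kcnv1* and *Kcnv2*. Just outside the minimum were *Kcnh5*, *Kcnj5* and *Kcnv2*, with 3 libraries at 10 counts or more, and just inside were *Kcnmb2* with 4 and *Kcna10* with 5. The filter on low counts also kept 3 members out of the KO comparison of P1, 14 out of that of P14, 18 out of P21 and 16 out of P35, so the counts of calls cover the members that passed that filter. The exons of 25 kept members overlap those of a neighbour or antisense gene, and their counts are uncertain to that extent. For 5 of the 25, *Kcnj13*, *Kcnh3*, *Kcnh7*, *Kcnip4* and *Kcnq1*, the other gene had more counts over the 32 libraries than the member.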

How the data were processed

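Paired-end reads of strand-specific muscle libraries were aligned by the authors to GRCm38 with STAR 2.6.1, and expected counts per gene were estimated with RSEM 1.2.22, per the submitters' processing notes. The methods of the study also name HTSeq. The deposited expected counts are not scaled, 4.26% are not whole, and 0 columns of values were left unused. They were rounded and analysed with edgeR 4.0.16 in R 4.3.3. Genes were filtered by filterByExpr, scaled by TMM, and compared by the two-sided QL test within each age, in 1 fit of the 16 WT libraries for age, and in 1 fit of 32 libraries for interactions (adjusted P under 0.01, no fold limit). P-values were adjusted for every gene tested by the Benjamini-Hochberg method. Gene symbols, coordinates and exon lengths came from GENCODE M21 of GRCm38. The named genes are the members called in KO against WT, the 10 of highest mean level, and the 5 with the largest rise and fall in WT from P1 to P35. Members and lists were chosen with earlier results of these data known. Same-numbered libraries deviated together at P14 (correlations of 0.19 to 0.588), but not at P1, P21 or P35. The labels do not say that the numbers pair libraries, so the tests without the block are the main ones. Libraries of a group differed by more than sampling noise. Alternatives included DESeq2 1.42.0, other scalings, filters and thresholds, the replicate block and leaving out each library. Some members and partner genes are counted but not reported by name here. The scripts were tested on simulated data. Figures used matplotlib 3.10.9.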

Additional observations from a re-analysis of the deposited data

Results flagged for a closer look

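In groups of 4 libraries, the highest or lowest library was checked for its distance from the other 3 with Dixon's ratio at its 95% limit, over 184 gene and group combinations of the 23 named members. Chance passes about 1 in 20 groups, and 9 passed here. *Kcng4* was at 4.75 CPM in KO replicate 2 at P35 (others 10.4 to 10.9 CPM). *Kcnn2* was at 11.1 CPM in WT replicate 1 at P21 (others 8.23 to 8.65 CPM). *Kcnn3* was at 11.3 CPM in KO replicate 4 at P14 (others at 16.4 CPM) and at 21.1 CPM in KO replicate 1 at P35 (others 25.1 to 25.6 CPM). *Kcnn4* was at 0.918 CPM in WT replicate 3 at P21 (others 0.443 to 0.491 CPM). *Kcnj8* was at 21.8 CPM in KO replicate 4 at P1 (others 15.8 to 16.3 CPM) and at 34.3 CPM in KO replicate 1 at P21 (others 24.8 to 25.3 CPM). *Kcnk13* was at 2.67 CPM in KO replicate 4 at P1 (others 4.87 to 5.08 CPM). *Kcnk7* was at 0.0242 CPM in WT replicate 3 at P21 and listed at 0 in the others. The effect of the KO on *Kcng4* also differed between ages, by -1.86 on the log2 scale from P21 to P35.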

How the results depend on the processing

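All 52 single-gene results kept their sign in all 711 alternative values, of which 646 stayed on the same side of the threshold and 65, in 16 results, did not. For the KO comparisons these values include the limit of adjusted P under 0.05 at any fold. That limit was applied to the main fit, so no sign or call could change there. At P1, DESeq2 called 2 members and a limit of adjusted P under 0.05 at any fold 1, and leaving out 1 library gave 0 to 1 (*Kcnc1*, without KO replicate 4). At P14 the replicate block gave 1 (*Kcng4*), and it moved no other count of members by over 1.5 times. At P21 the looser limit gave 10. At P35 it gave 23, as did 1 fit of all 32 libraries. For WT at P35 against P21, DESeq2 called 9, and leaving out 1 library gave 2 to 8. With only the 16 libraries of the ages compared, the interaction passed for 1 member from P14 to P21 and for 0 from P21 to P35, and leaving out 1 library gave 1 to 2 for the latter (*Kcna7* was added without KO replicate 2 of P35). The cause of these changes was not tested. The share of all genes called under each alternative is not given here, so these counts of members carry no background. Same-numbered libraries had mean correlations of -0.14, 0.0735 and 0.0487 at P1, P21 and P35, so a block there pairs libraries by number alone. With it *Kcna6* and *Kcnj10* lost their calls in WT from P14 to P21, *Kcnq5* lost its call at P21, and *Kcnk5* lost and *Kcnj15* gained one at P35. Members near 10 counts give no firm direction at this depth.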

Other observations

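KO replicate 4 at P1 held the highest or lowest P1 level of many members. Its Schwann cell and nerve marker sum was the lowest of the 8 P1 libraries, at 201 CPM against 245 to 333 CPM. *Kcnq3* (Kv7.3) was at 1.13 CPM there against 0.181 to 0.506 CPM in the other 7 P1 libraries, and *Kcnt1*, a sodium-activated channel, at 2.62 CPM against 0.435 to 1.40 CPM. The same library was the highest of the 8 P1 libraries for 23 of the 69 members and the lowest for 20, the lowest including *Kcnc4* at 7.69 CPM (13.6 to 19.8 CPM in the others). These genes were named after their values were seen.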
